A study of Caenorhabditis elegans with 12 samples.

Results

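The genes described here are those for the proteins of the cytosolic ribosome of Caenorhabditis elegans, chosen by name: every gene whose symbol is rpl, rps or rla followed by a number. The rule found 81 of the 46761 genes in the expression table, of which 47 encode proteins of the large subunit (rpl), 31 proteins of the small subunit (rps) and 3 the acidic stalk (rla). No measured value was used to choose them. A gene was tested where its level reached 1 FPKM (fragments per kilobase of transcript, scaled to the mapped fragments of the library) in at least 3 libraries. By that filter 80 of the 81 were tested, among 14199 genes in all, and only rpl-42 was left out.

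The RNA came from whole young adult hermaphrodites picked by hand, in 4 genotypes with 3 biological replicates each: lin-29(n836), mab-10(tm2497), ddx-23(n5705) and wild-type. All 4 strains, wild-type included, carried the maIs105 transgene, in which the promoter of the adult hypodermal collagen gene col-19 drives GFP. LIN-29 is a zinc-finger transcription factor of the EGR family and MAB-10 its NAB-family cofactor, and both act at the transition from larva to adult in the hypodermis. DDX-23 is a DEAD-box helicase of the spliceosome, and n5705 is a missense, partial loss-of-function line. Each genotype is therefore 1 strain measured as a whole animal, so that fewer cells of a type and less RNA per cell cannot be told apart.

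A ribosome carries a single copy of nearly every ribosomal protein, and the genes for them are transcribed at very high and closely matched rates in growing cells. Their transcripts are short, hold few introns and in many animals share translational control, and several host small nucleolar RNAs (guides for the modification of ribosomal RNA) in their introns. In the C. elegans adult the germline, which provisions the oocytes, and the intestine, which makes yolk protein, are tissues of intense protein synthesis. Most ribosomal proteins have 1 gene in this species, and a few have a second copy.

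Values are on the log2(FPKM + 1) scale throughout, and a difference is the mean of the first genotype minus the mean of the second on that scale, with the standard error of the linear model. The files give no read counts, so the depth behind each value is unknown. The library numbers in the labels, 3233 to 3253, were split here into a lower and a higher run between 3244 (lin-29 replicate 1) and 3248. The labels do not give this split, and numbers are also skipped between 3235 and 3239, 3241 and 3244, and 3250 and 3252. Numbered lower are the 3 ddx-23 libraries, wild-type replicates 1 and 2, and replicate 1 of lin-29 and mab-10 (7 libraries). Numbered higher are wild-type replicate 3 and replicates 2 and 3 of lin-29 and mab-10 (5 libraries). What the numbers stand for is not given. Markers of the tissues of an adult hermaphrodite were present in every genotype: all 14 germline, 11 oocyte and embryo, 11 intestine, 8 muscle and 10 neuron markers passed the filter, with 41 of 47 sperm and 9 of 10 hypodermis markers, and 0 values occurred only in rol-6 and wrt-2 among those tested. The mutated genes themselves stayed detectable, at 2.85 to 3.27 for lin-29 in lin-29 mutants against 1.90 to 2.13 in wild-type, 2.67 to 3.15 for mab-10 in mab-10 mutants against 2.03 to 2.72 in wild-type, and 6.04 to 6.2 for ddx-23 in ddx-23 mutants against 5.68 to 5.75 in wild-type. A gene-level FPKM does not read the mutations themselves.

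Ribosomal protein transcripts were among the most abundant in these adults. In wild-type the median of the 80 tested genes was 11.85, close to 3710 FPKM, against 3.47 for the median of all tested genes, and 74 of the 100 genes with the highest wild-type mean were ribosomal protein genes. Their levels were also alike: 73 of the 80 had a wild-type mean between 11 and 13, with 2 above and 5 below that range. The order of the genes was nearly the same in every library. Over the 66 pairs of libraries, Pearson's r across the 80 genes lay between 0.938 and 0.999 and Spearman's rho between 0.843 and 0.996; genes are not independent replicates and the libraries of a pair share the same quantification.

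At the top stood rpl-41.2, named for the very short basic protein of the large subunit, with a wild-type mean of 14.16 ± 0.44 (SD, n = 3). It was followed by rpl-29 (13.70 ± 0.50), a small basic protein of the large subunit, and rpl-39 (12.96 ± 0.39), which lines the tunnel through which the new protein leaves. The lowest was rpl-42, listed at 0 in all 3 wild-type libraries, at 0.77, 0.28 and 0.52 in lin-29 mutants, at 0.00, 0.95 and 0.00 in mab-10 mutants and at 0.00, 0.79 and 0.46 in ddx-23 mutants. The next was rpl-37 (6.69 ± 0.67). The third was rpl-24.2 (7.96 ± 0.23), whose relative in yeast and human is an assembly factor that holds the place of the true subunit protein in the immature particle. The second gene of that pair, rpl-24.1, which encodes the subunit protein itself, stood at 11.91 ± 0.18.

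The share of the FPKM sum taken by all 81 genes was 25.9, 25.4 and 24.4% in the lin-29 libraries, 27.4, 27.4 and 26.8% in the mab-10 libraries and 26.6, 25.18 and 25.8% in the ddx-23 libraries, against 30.7, 30.97 and 26.1% in the wild-type libraries. Wild-type replicates 1 and 2 lay above all 9 mutant libraries, while wild-type replicate 3 lay inside their range. The mean was 25.21 ± 0.75% for lin-29, 27.2 ± 0.34% for mab-10, 25.9 ± 0.72% for ddx-23 and 29.2 ± 2.76% for wild-type (SD, n = 3 each). The 3 lin-29 libraries lay below every wild-type library, and the mab-10 and ddx-23 libraries overlapped the wild-type group. The large-subunit share divided by the small-subunit share averaged 1.5 ± 0.07 for lin-29, 1.53 ± 0.07 for mab-10 and 1.55 ± 0.0053 for ddx-23, against 1.55 ± 0.04 for wild-type (SD, n = 3 each), and the 4 groups overlapped.

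**Figure D1:**
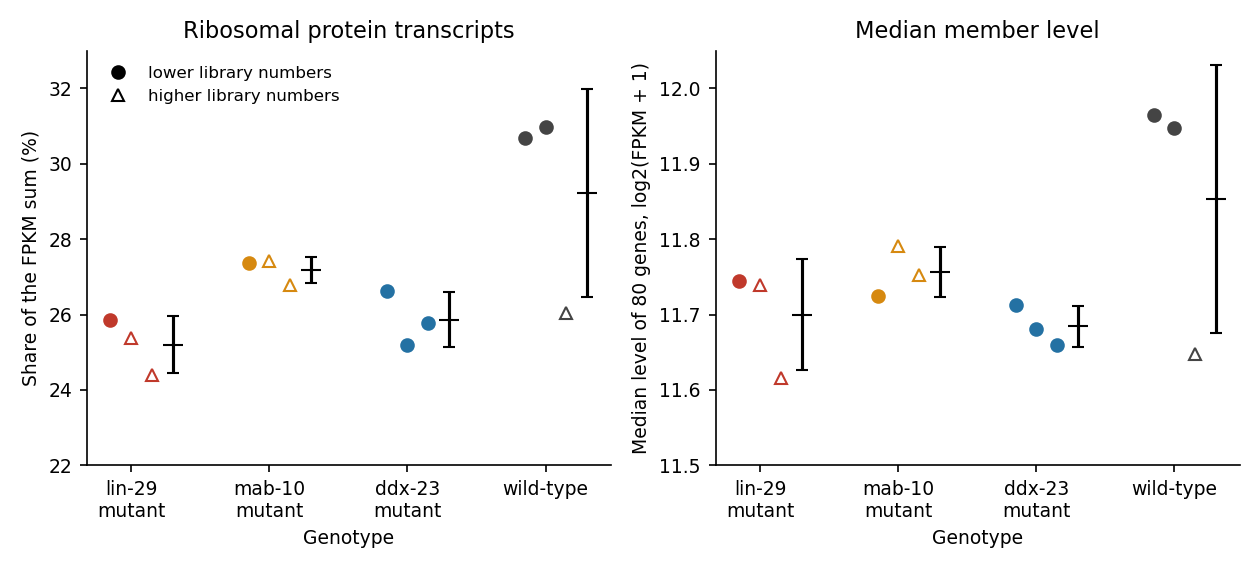
Left, share of the FPKM sum in the 81 ribosomal protein genes (percent); right, median level of the 80 tested genes (log2(FPKM + 1)). Each point is 1 library, circles have lower and triangles higher library numbers, and the bar gives the mean ± SD of 3 libraries; neither axis starts at 0. Wild-type replicates 1 and 2 lie above every mutant library and wild-type replicate 3 does not.

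The median level of the 80 genes had a similar pattern, with overlap between every mutant and wild-type, at 11.75, 11.74 and 11.62 in lin-29 libraries, 11.73, 11.79 and 11.75 in mab-10 libraries and 11.71, 11.68 and 11.66 in ddx-23 libraries, against 11.96, 11.95 and 11.65 in wild-type libraries. Gene by gene, 78 of the 80 were lower in wild-type replicate 3 than in both other wild-type libraries, by a median of 0.31, where all tested genes had a median of 0.16 in the other direction. For 57 of the 80 genes, wild-type replicates 1 and 2 were both above all 9 mutant libraries, compared with 3.64% of all tested genes. For 74 of the 80, wild-type replicate 3 was inside the range of the mutant libraries. Tissue markers were read in the same libraries. The summed share of the 11 intestine markers was 1.38 to 1.51% for lin-29, 1.51 to 2.15% for mab-10 and 1.91 to 2.06% for ddx-23, against 2.66, 2.65 and 2.25% in wild-type replicates 1, 2 and 3. That of the 8 body wall muscle markers was 0.17 to 0.25% for lin-29, 0.19 to 0.26% for mab-10 and 0.25 to 0.26% for ddx-23, against 0.15, 0.14 and 0.21% in wild-type. The 14 germline markers took 0.13 to 0.17% for lin-29, 0.15 to 0.18% for mab-10 and 0.16 to 0.17% for ddx-23, against 0.16 to 0.17% in wild-type. Of the intestine markers, the 6 yolk protein genes (vit-1 to vit-6) fell and 4 others rose in lin-29 mutants, none was called in mab-10 mutants and 1 fell in ddx-23 mutants; no germline or oocyte marker was called. Of 41 sperm markers, 11 rose in lin-29 mutants, 0 were called in mab-10 mutants and 4 rose in ddx-23 mutants, and the sperm list took 0.18 to 0.25% for lin-29, 0.072 to 0.12% for mab-10 and 0.14 to 0.27% for ddx-23, against 0.10 to 0.15% in wild-type. The part of any tissue in the ribosomal protein levels was not tested.

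Against wild-type, nearly all ribosomal protein genes had small negative differences on the deposited scale, and almost none passed the test. Leaving out wild-type replicates 1 and 2 took this direction away. Quantile normalization did so as well, but it sets the values at each rank equal in every library. For a class with 74 of the 100 highest wild-type means, that removes much of a joint shift by construction. The values that follow are on the deposited scale. In lin-29 mutants 77 of the 80 had a negative difference, with a median of −0.14 (all tested genes, 0.19). The mab-10 mutants had 77 of 80 negative, with a median of −0.10 (all tested genes, 0.14). The ddx-23 mutants had 75 of 80 negative, with a median of −0.16 (all tested genes, 0.09). The 3 comparisons share the same 3 wild-type libraries, and the median standard error of a member was 0.10. No member reached a difference of 1, which is 2-fold, in any comparison.

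Tested with limma across all genes at a Benjamini-Hochberg adjusted p under 0.05, the calls were as follows. In lin-29 mutants 0 of 80 rose, where 16.3% of all tested genes did, and 1 fell (rpl-11.1), where 2.73% of all tested genes did. For mab-10 the counts were 0 and 0, where 1.04% of all tested genes rose and 0.232% fell. For ddx-23 they were 0 and 1 (again rpl-11.1), where 7.17% of all tested genes rose and 1.46% fell. The share of members called was no higher than that of all tested genes in any of these directions. A fit without the mean-variance trend and robust options called the same numbers. At an unadjusted p under 0.05 lin-29 had 1 higher and 16 lower members, mab-10 had 0 higher and 1 lower, and ddx-23 had 0 higher and 24 lower. In either direction these were 21.25%, 1.25% and 30% of the members, against 33.8%, 21.1% and 23.3% of all tested genes. The unadjusted shares of all tested genes were not split by direction, and at the adjusted threshold more of those genes rose than fell.

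Read without a model, the lin-29 libraries were all below the wild-type libraries for 10 of the 80 genes, or 12.5% (5.71% of all tested genes), and all above for 1, rpl-11.2 (24.1%). The mab-10 libraries were all below for 1 gene, rpl-11.1 (3.23%), and all above for 0 (14.8%). The ddx-23 libraries were all below for 17 genes, or 21.25% (9.35% of all tested genes), and all above for 0 (24.1%). Those 17 were rpl-11.1, rpl-12 and rpl-7A with 14 others, among them rpl-5, rps-3 and rps-6.

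**Figure D2:**
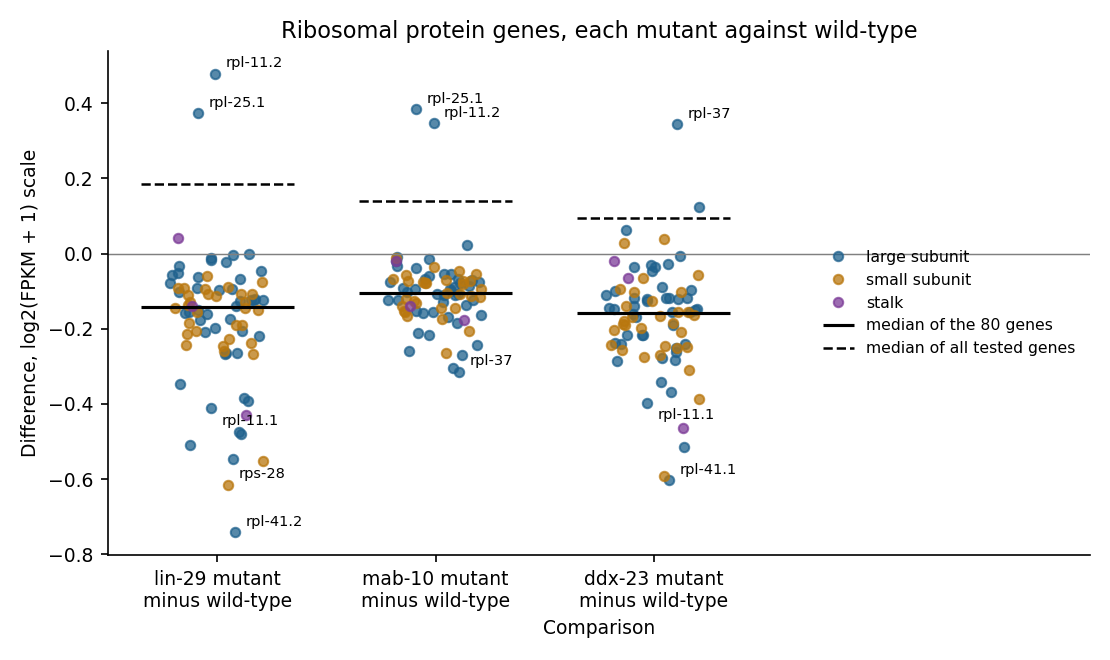
Difference from wild-type on the log2(FPKM + 1) scale for the 80 tested genes in the lin-29, the mab-10 and the ddx-23 mutants; each point is 1 gene, coloured by subunit, the solid line is the median of the 80 genes and the dashed line that of all tested genes. The medians of the class are −0.14, −0.10 and −0.16 and those of all tested genes 0.19, 0.14 and 0.09. Quantile normalization moves the class medians to 0.04, 0.03 and −0.0011 and those of all tested genes to −0.14, −0.04 and −0.07.

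The count of members called depended on 1 wild-type library. Without wild-type replicate 3, 35 members were called lower for lin-29, 7 for mab-10 and 27 for ddx-23, with medians of −0.24, −0.22 and −0.27, where 4.62%, 2.61% and 2.68% of all tested genes were lower. Among the lower-numbered libraries alone, where wild-type is replicates 1 and 2, the counts were 21 lower and 1 higher (rpl-11.2) for lin-29, 10 lower for mab-10 and 55 lower for ddx-23, where 3.97%, 3.12% and 6.97% of all tested genes were lower. There lin-29 and mab-10 have 1 library each, assumed to vary like the other groups, so that for them these calls compare single libraries. Among the higher-numbered libraries alone, where wild-type is replicate 3 alone under the same assumption, 0 were called for lin-29 or mab-10 and the medians were 0.02 and 0.11; the ddx-23 mutants have no library there. The scaling mattered as well: dividing each library by its median ratio to the mean library gave 16, 0 and 4 members lower for the lin-29, the mab-10 and the ddx-23 mutants with medians of −0.33, −0.27 and −0.28 (8.20%, 0.303% and 3.0% of all tested genes lower), and quantile normalization gave 0 lower in each, 1 higher in lin-29 mutants (rla-0), and medians of 0.04, 0.03 and −0.0011.

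**Figure D3:**
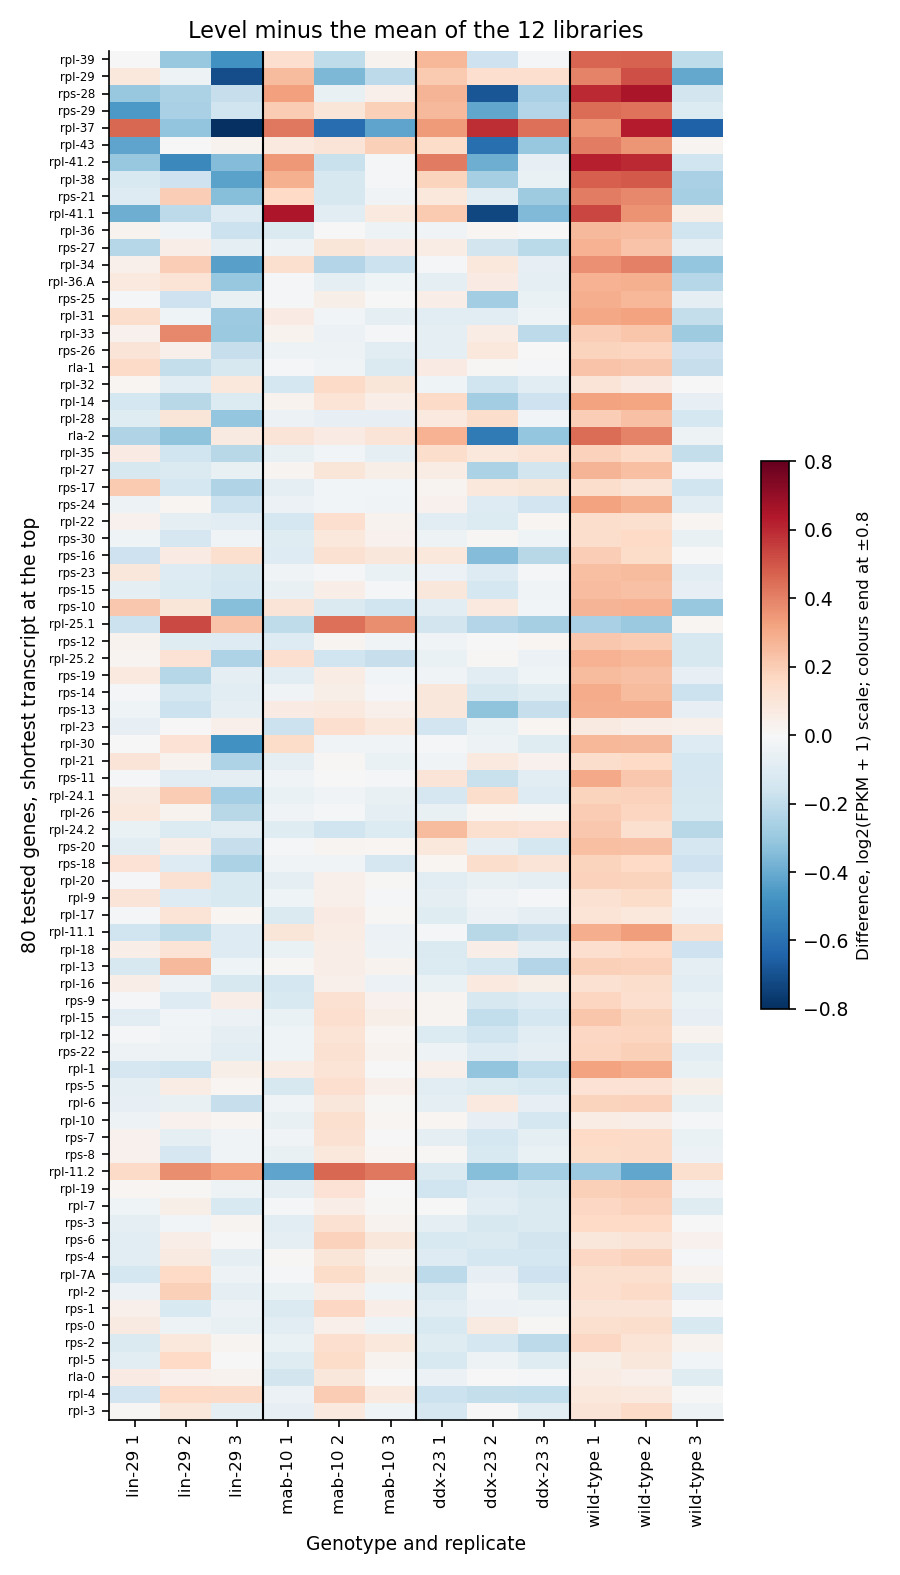
Level of each of the 80 tested genes in each of the 12 libraries, minus that gene's mean over the 12 libraries (log2(FPKM + 1) scale, colours end at ±0.8); genes run from the shortest transcript at the top to the longest, and libraries from lin-29 on the left to wild-type on the right. Wild-type replicates 1 and 2 are red in nearly every row, rpl-11.2 and rpl-25.1 stand out against the rows around them, and the strongest colours are in the short transcripts at the top.

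rpl-11.1 was the member called in 2 mutants. Its protein, RPL11, joins a small ribosomal RNA and RPL5 in a particle that docks on the large subunit, and in mammals the free particle binds the p53 regulator MDM2. The gene lies on chromosome V at 3585312 to 3586064, minus strand (WBcel235), with 3 exons in its longest transcript. Its level was 11.02, 10.98 and 11.07 in lin-29 libraries, 11.28, 11.24 and 11.13 in mab-10 libraries and 11.17, 10.95 and 10.99 in ddx-23 libraries, against 11.47, 11.51 and 11.32 in wild-type libraries. No mutant library reached the lowest wild-type library. It fell by 0.41 in lin-29 mutants (SE 0.08, limma adjusted p = 0.0053) and by 0.40 in ddx-23 mutants (SE 0.08, adjusted p = 0.013), and the difference in mab-10 mutants was −0.22 (SE 0.08, adjusted p = 0.18).

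For rpl-11.1 in ddx-23 mutants the limma adjusted p was 0.054 without wild-type replicate 1 (difference −0.38), 0.067 without wild-type replicate 2 (−0.36), 0.066 without ddx-23 replicate 2 (−0.35) and 0.058 without ddx-23 replicate 3 (−0.37). Relative to the median of the 80 genes in the same library, the rpl-11.1 difference was −0.26 in lin-29 mutants (adjusted p = 0.065) and −0.23 in ddx-23 mutants (adjusted p = 0.13). Among the lower-numbered libraries the rpl-11.1 difference was −0.47 in lin-29 mutants (1 library, adjusted p = 0.018) and −0.45 in ddx-23 mutants (adjusted p = 0.0059), and among the higher-numbered libraries −0.29 in lin-29 mutants (against 1 wild-type library, adjusted p = 0.10); the spread of a single library was taken from the other groups. Quantile normalization gave rpl-11.1 an adjusted p of 0.10 for lin-29 and 0.11 for ddx-23, and leaving out wild-type replicates 1 and 2 gave 0.19 and 0.24.

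The second gene for RPL11, rpl-11.2, lies on the X chromosome at 2241738 to 2242618 (minus strand) and its level was lower than that of rpl-11.1 in every library. It stood at 9.97, 10.19 and 10.15 in lin-29 libraries, 9.40, 10.27 and 10.24 in mab-10 libraries and 9.70, 9.48 and 9.55 in ddx-23 libraries, against 9.52, 9.40 and 9.94 in wild-type libraries. The lin-29 libraries were all above wild-type, with a difference of 0.48 (SE 0.22, limma adjusted p = 0.14). In mab-10 mutants the difference was 0.35 (SE 0.22, adjusted p = 0.36) and in ddx-23 mutants −0.05 (SE 0.22, adjusted p = 0.94). Among the lower-numbered libraries alone rpl-11.2 was called higher in the single lin-29 library there (0.51, limma adjusted p = 0.019, with the spread taken from the other groups), and without mab-10 replicate 1 in both lin-29 and mab-10 mutants.

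The balance of both genes can be read within a library, where scaling cancels. The log2 ratio of rpl-11.2 to rpl-11.1 was −1.05, −0.79 and −0.93 in lin-29 libraries, −1.88, −0.97 and −0.89 in mab-10 libraries and −1.46, −1.47 and −1.45 in ddx-23 libraries, against −1.94, −2.11 and −1.38 in wild-type libraries. The lin-29 libraries were all above wild-type, with a difference of 0.89 (exact permutation p = 0.10, two-sided, the smallest that 3 against 3 can give). The same difference was 0.56 in mab-10 mutants (exact permutation p = 0.20) and 0.35 in ddx-23 mutants (p = 0.40). The higher-numbered libraries (replicates 2 and 3 of lin-29 and mab-10, and wild-type replicate 3) had higher ratios than the lower-numbered ones of their genotype. The permutation does not take the library number into account. Over the 18 ratio tests made on 6 pairs of genes, the smallest adjusted p was 0.51.

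rpl-25.1 and rpl-25.2, a pair for the protein that binds near the exit of the tunnel, were placed likewise, with rpl-25.1 on the X chromosome (4715178 to 4715796, plus strand) and rpl-25.2 on chromosome I (8329062 to 8329647, minus strand). rpl-25.1 stood at 8.99, 9.69 and 9.39 in lin-29 libraries, 8.97, 9.61 and 9.54 in mab-10 libraries and 9.02, 8.93 and 8.90 in ddx-23 libraries, against 8.91, 8.87 and 9.18 in wild-type libraries. rpl-25.2 stood at 11.08, 11.17 and 10.81 in lin-29 libraries, 11.19, 10.90 and 10.88 in mab-10 libraries and 11.01, 11.07 and 11.01 in ddx-23 libraries, against 11.34, 11.33 and 10.93 in wild-type libraries. Neither gene passed the test in any mutant: the differences of rpl-25.1 were 0.37, 0.39 and −0.03 in the lin-29, the mab-10 and the ddx-23 mutants (SE 0.19, limma adjusted p = 0.20, 0.28 and 0.95), and those of rpl-25.2 were −0.18, −0.21 and −0.17 (SE 0.13, adjusted p = 0.37, 0.37 and 0.50).

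In lin-29 and mab-10 mutants both X-linked copies were thus positive where nearly all of the class was negative: the only other member above 0 was rla-0 in lin-29 mutants (0.04) and rpl-4 in mab-10 mutants (0.02). In ddx-23 mutants both were just below 0, and 5 other members were above it. They are the only 2 members on the X chromosome, which holds 2000 of the tested genes, and the other members lie on chromosomes I (25), III (18), IV (18), II (10) and V (8). All tested X-linked genes had a median difference of 0.33 for lin-29, 0.32 for mab-10 and 0.08 for ddx-23, and autosomal genes 0.16, 0.12 and 0.10. Within wild-type, replicate 3 was above the mean of replicates 1 and 2 by 0.39 in the median of both members, by 0.35 in the median of all X-linked genes and by 0.14 in the median of autosomal genes. The 10 neuron markers, of which 1 rose in lin-29 mutants and none was called in the others, took 0.037 to 0.046% for lin-29, 0.036 to 0.056% for mab-10 and 0.042 to 0.046% for ddx-23, against 0.029, 0.029 and 0.045% in wild-type. The part of tissue composition in the balance of these copies was not tested.

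**Figure D4:**
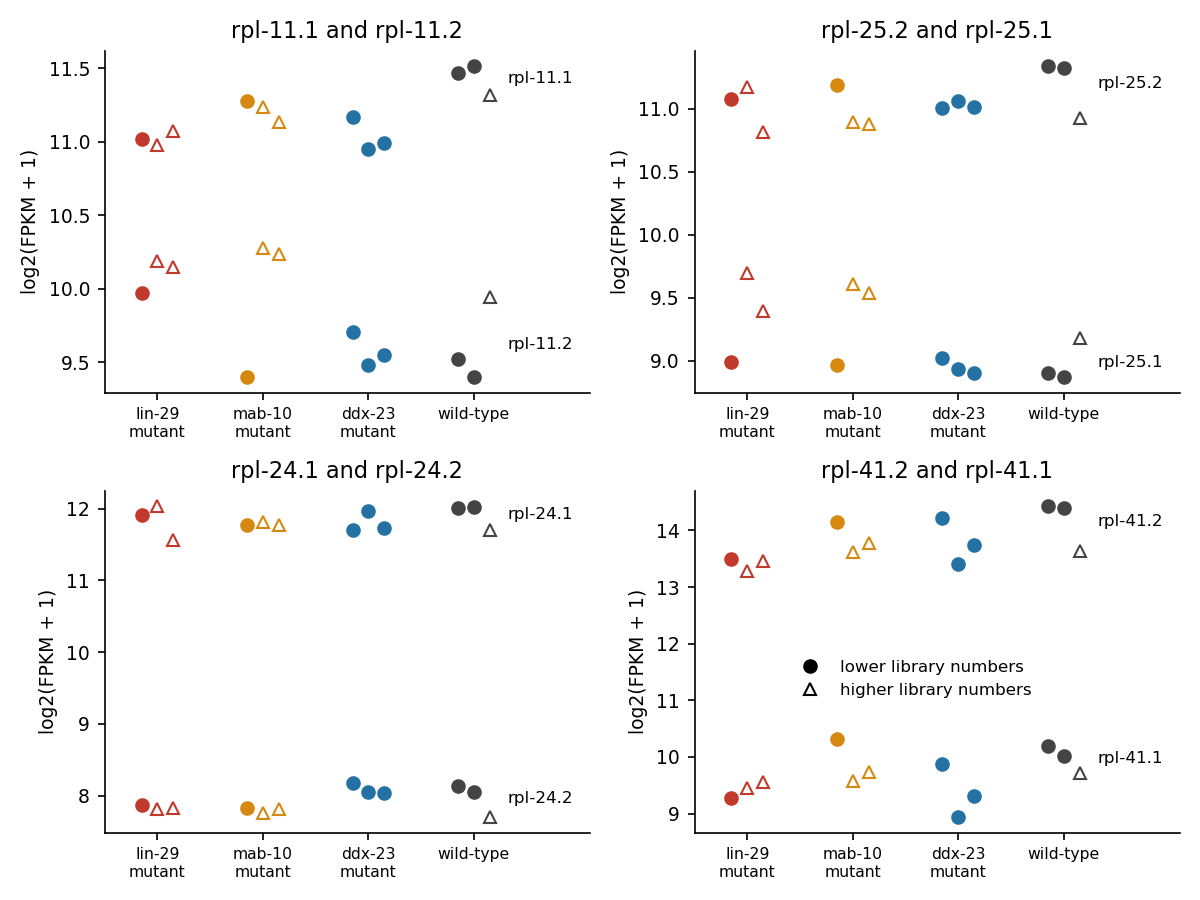
Levels (log2(FPKM + 1)) of 4 pairs of ribosomal protein genes that share a stem in their symbol, by genotype; each point is 1 library, circles have lower and triangles higher library numbers. rpl-11.2 and rpl-25.1 are higher in the triangles than in the circles of the same genotype.

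The other pairs kept their ratio more closely. rpl-41.1 and rpl-41.2 lie next to each other on chromosome I (4789190 to 4789592 and 4790292 to 4790642, plus strand) and carry the same name stem, so that reads shared between them could make the split uncertain. rpl-41.2 exceeded rpl-41.1 by 3.83 to 4.22 for lin-29, 3.83 to 4.04 for mab-10 and 4.34 to 4.47 for ddx-23, against 3.93 to 4.37 for wild-type. rpl-24.2, the gene of the assembly factor, gave a mean log2 ratio to rpl-24.1 of −3.99 ± 0.25 for lin-29, −3.99 ± 0.05 for mab-10 and −3.71 ± 0.20 for ddx-23, against −3.949 ± 0.07 for wild-type (SD, n = 3 each). Despite their names rpl-7 and rpl-7A encode unlike proteins, as do rpl-36 and rpl-36.A. rpl-7 differed by −0.12, −0.07 and −0.15 and rpl-7A by −0.10, −0.03 and −0.24 in the lin-29, the mab-10 and the ddx-23 mutants, and rpl-36 by −0.17, −0.17 and −0.12 and rpl-36.A by −0.15, −0.15 and −0.14, with no adjusted p under 0.05. rpl-7 was the steadiest member, with an SD over the 12 libraries of 0.03 once the median of the 80 genes was subtracted.

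The shortest transcripts varied most. The longest annotated transcript of the 80 genes ranged between 236 and 1334 nucleotides, with a median of 513.5, where tested protein-coding genes had a median of 1315. After the library's median of the 80 genes was subtracted, the SD over the 12 libraries had a median of 0.28 for the 8 genes of up to 300 nucleotides, 0.11 for the 28 over 300 and up to 500, 0.08 for the 27 over 500 and up to 700, and 0.08 for the 17 longer ones. Those 8 are rpl-29, rpl-37, rpl-38, rpl-39, rpl-41.2, rpl-43, rps-28 and rps-29. FPKM divides by an effective length, which for such transcripts depends strongly on the fragment size assumed.

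The largest negative difference of the class, and the nearest to a call after rpl-11.1 in lin-29 mutants, was that of rpl-41.2. It stood at 13.50, 13.28 and 13.46 in lin-29 libraries, 14.15, 13.63 and 13.78 in mab-10 libraries and 14.22, 13.41 and 13.74 in ddx-23 libraries, against 14.43, 14.40 and 13.64 in wild-type libraries. The lin-29 libraries were all below wild-type, with a difference of −0.74 (SE 0.24, limma adjusted p = 0.053). In mab-10 mutants the difference was −0.30 (SE 0.24, adjusted p = 0.48) and in ddx-23 mutants −0.37 (SE 0.24, adjusted p = 0.40).

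Other short genes were placed like it. rps-28, a small-subunit protein at the exit side of the messenger RNA channel, stood at 11.60, 11.64 and 11.71 in lin-29 libraries, 12.23, 11.84 and 11.94 in mab-10 libraries and 12.17, 11.22 and 11.64 in ddx-23 libraries, against 12.50, 12.55 and 11.75 in wild-type libraries. The lin-29 libraries of rps-28 were all below wild-type and the other 2 mutant groups overlapped it. Its differences were −0.61, −0.26 and −0.59 in the lin-29, the mab-10 and the ddx-23 mutants (SE 0.25, limma adjusted p = 0.11, 0.56 and 0.17). rps-29, a zinc-binding protein of the head of the small subunit, differed by −0.55, −0.09 and −0.39 (SE 0.18, adjusted p = 0.058, 0.80 and 0.23), and rpl-43, a zinc-binding protein of the large subunit, by −0.39, −0.14 and −0.51 (SE 0.18, adjusted p = 0.16, 0.69 and 0.12). rpl-38 differed by −0.48, −0.19 and −0.28, and rpl-39 by −0.51, −0.26 and −0.22, with no adjusted p under 0.05. In ddx-23 mutants rpl-29 was near 0 and rpl-37 was positive. rpl-29 differed by −0.38, −0.27 and −0.0066 (SE 0.26) and rpl-37 by −0.48, −0.31 and 0.34 (SE 0.43), again with no adjusted p under 0.05. rpl-38, rps-28, rps-29 and rpl-43 were named after their values had been seen.

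Over the 80 genes, Pearson's r between the difference and the log2 length of the transcript was 0.63 for lin-29, 0.51 for mab-10 and 0.18 for ddx-23, and Spearman's rho 0.62, 0.67 and 0.14; the genes share their libraries, and the 3 comparisons share the wild-type libraries. By length, the median difference in lin-29 mutants was −0.49, −0.18, −0.12 and −0.10 from the shortest to the longest of the 4 classes above. It was −0.26, −0.14, −0.10 and −0.06 for mab-10 and −0.32, −0.15, −0.16 and −0.15 for ddx-23. Tested protein-coding genes as a whole, 190 of them of up to 300 nucleotides, had a rho with length of 0.01, 0.08 and −0.07. By the same classes their medians were 0.27, 0.27, 0.16 and 0.19 for lin-29, not in the order of the members. For ddx-23 they were 0.24, 0.22, 0.12 and 0.09, again not in that order. For mab-10 they were 0.00, 0.12, 0.11 and 0.15, lowest in the shortest and highest in the longest class, as in the members. The order was not tested without wild-type replicates 1 and 2. Wild-type replicate 3 alone stood at 13.12 for rpl-29, 12.38 for rpl-38, 12.51 for rpl-39 and 12.27 for rpl-43. The lin-29 means of these genes were 13.31, 12.40, 12.45 and 12.12, and the mab-10 means 13.43, 12.68, 12.70 and 12.37.

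**Figure D5:**
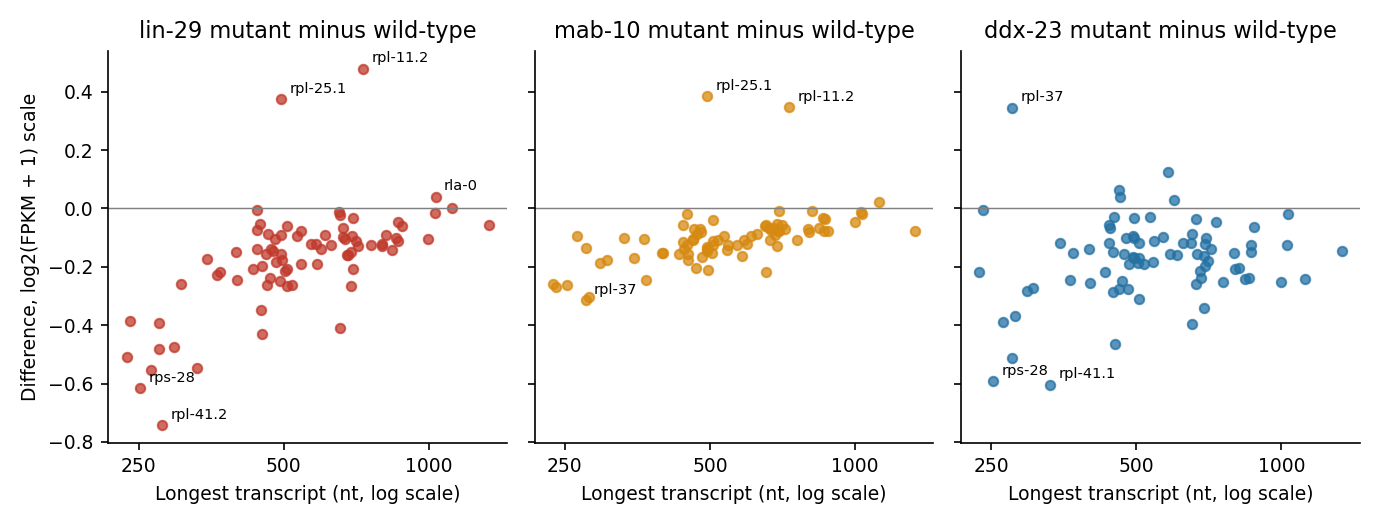
Difference from wild-type (log2(FPKM + 1) scale) against the length of the longest annotated transcript (nucleotides, log axis) for the 80 tested genes in the lin-29, the mab-10 and the ddx-23 mutants; each point is 1 gene. Spearman's rho is 0.62, 0.67 and 0.14, and the 8 genes of up to 300 nucleotides have median differences of −0.49, −0.26 and −0.32. Wild-type is the mean of its replicates, of which replicate 3 was the lowest for 78 of the 80 genes.

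rpl-37, a zinc-binding protein of the large subunit whose gene here has 1 exon and lies across pitp-1, was the least steady member, with a residual SD of 0.58 and a 3.74-fold span of FPKM. Its level was 7.04, 6.26 and 5.33 in lin-29 libraries, 7.001, 5.97 and 6.16 in mab-10 libraries and 6.92, 7.17 and 7.02 in ddx-23 libraries, against 6.94, 7.21 and 5.93 in wild-type libraries. All 5 higher-numbered libraries (5.33 to 6.26) lay below all 7 lower-numbered ones (6.92 to 7.21), in every genotype that has both. The difference from wild-type in ddx-23 mutants was 0.34 (SE 0.43, limma adjusted p = 0.70), and within the lower-numbered libraries it was −0.04.

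The same separation of higher- from lower-numbered libraries held for rla-1 and for rpl-29, which lay at 12.83 to 13.49 in the higher-numbered and 13.62 to 14.04 in the lower-numbered libraries, so that 3 of the 80 genes were lower without overlap (3.06% of all tested genes). One member, rpl-25.1, was higher without overlap, at 9.18 to 9.69 in the higher-numbered and 8.87 to 9.02 in the lower-numbered libraries (7.94% of all tested genes). The ddx-23 mutants have lower-numbered libraries only, so that against wild-type replicate 3 their genotype and their library number cannot be told apart.

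The stalk recruits the elongation factors to the ribosome. Its base, rla-0, averaged 11.96 ± 0.02 for lin-29, 11.90 ± 0.12 for mab-10 and 11.90 ± 0.02 for ddx-23, against 11.92 ± 0.09 for wild-type (SD, n = 3 each), and spanned only 0.24 over the 12 libraries. rla-0 differed by 0.04, −0.02 and −0.02 (SE 0.07) in the lin-29, the mab-10 and the ddx-23 mutants, and it was the 1 member called higher in lin-29 mutants after quantile normalization. rla-1 differed by −0.14, −0.14 and −0.07 (SE 0.12) and rla-2, which has a shorter transcript than rla-0, by −0.43, −0.18 and −0.46 (SE 0.20); no stalk gene had an adjusted p under 0.05.

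Transcripts of rpl-1, rpl-3, rpl-7A and rpl-12 are known in C. elegans to be spliced in part into forms with an early stop codon that are then degraded, and DDX-23 belongs to the spliceosome. In ddx-23 mutants 0 of the 4 were called, with differences of −0.34 for rpl-1 (SE 0.12, limma adjusted p = 0.11), −0.15 for rpl-3 (SE 0.08, adjusted p = 0.30), −0.24 for rpl-7A (SE 0.09, adjusted p = 0.12) and −0.24 for rpl-12 (SE 0.07, adjusted p = 0.054). Their median was −0.13 for lin-29, −0.08 for mab-10 and −0.24 for ddx-23, where all 80 had −0.14, −0.10 and −0.16. rpl-12, a protein at the base of the stalk, stood at 11.21, 11.16 and 11.23 in ddx-23 libraries, against 11.48, 11.49 and 11.35 in wild-type libraries, with no overlap. The rpl-12 call in ddx-23 mutants was made under 7 of 24 alternatives, with adjusted p between 0.0053 and 0.98. These values are sums over all transcripts of a gene and do not separate the spliced forms.

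Between mutants, 0 of the 80 genes were called in any comparison. At the same threshold 9.40% of all tested genes were called for lin-29 against mab-10, 21.2% for lin-29 against ddx-23 and 8.09% for mab-10 against ddx-23. At an unadjusted p under 0.05 the members counted 0 higher and 2 lower in lin-29 than in mab-10 mutants (23.2% of all tested genes in either direction), 2 higher and 1 lower in lin-29 than in ddx-23 mutants (35.6%) and 5 higher and 1 lower in mab-10 than in ddx-23 mutants (26.0%). The median difference of the class was −0.05 for lin-29 minus mab-10, 0.01 for lin-29 minus ddx-23 and 0.07 for mab-10 minus ddx-23. The largest differences were −0.83 and −0.66, of rpl-37 in lin-29 and in mab-10 minus ddx-23 mutants, and neither passed the test.

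The annotation of the locus limits single members. 15 of the 81 genes overlap another protein-coding gene, such as rpl-37 with pitp-1, rpl-39 with grl-10, rla-1 with arl-13, rpl-24.2 with C03D6.1 and rpl-7 with F53G12.9, and strand-specific counting is not stated, so reads of both genes may be mixed. The 15 had median differences of −0.14, −0.09 and −0.15 in the lin-29, the mab-10 and the ddx-23 mutants, near those of the class. 13 members hold 19 annotated small nucleolar RNA genes, and these 13 had medians of −0.14, −0.08 and −0.19, where the 67 others had −0.14, −0.11 and −0.16.

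Other genes of translation were described from lists by their counts. The 3 genes closest to the class, ubl-1 and ubq-2, which encode a ribosomal protein fused to ubiquitin, and rack-1, a protein of the small subunit, had 0 calls in any mutant, with differences from −0.35 to 0.05. Of 69 mitochondrial ribosomal protein genes, 0 rose and 2 fell in lin-29 mutants (mrpl-36 by 0.39 and mrps-14 by 0.38), 0 were called in mab-10 mutants, and 0 rose and 3 fell in ddx-23 mutants (mrps-12 by 0.36, mrpl-13 by 0.26 and mrpl-44 by 0.24), with medians of −0.10, −0.04 and −0.08. Of 32 initiation factors, 0 rose and 4 fell in lin-29 mutants (eif-3.F by 0.26, eif-3.J by 0.25, eif-1.A by 0.23 and eif-6 by 0.23) and 0 were called in mab-10 mutants. In ddx-23 mutants 3 initiation factors fell (eif-3.E by 0.32, ife-1 by 0.31 and eif-2gamma by 0.29) and 1 rose (eif-4A3, a helicase of the exon junction complex, by 0.53, SE 0.11, limma adjusted p = 0.012). Of 32 aminoacyl-tRNA synthetases, 2 rose and 1 fell in lin-29 mutants (aars-2 and yars-1, and kars-1), 0 were called in mab-10 mutants and 3 fell in ddx-23 mutants (yars-2, fars-1 and fars-3), all by less than 0.5. Of the same 32, 12 were higher in lin-29 than in ddx-23 mutants, where 14.2% of all tested genes were.

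Factors that build ribosomes were described in the same way. Of 23 nucleolar and assembly factors, a list that also holds rpl-24.2 and eif-6, 1 rose in lin-29 mutants (ncl-1, a repressor of nucleolar size, with a difference of 0.29) and 5 fell (garr-1 by 0.63, nol-16 by 0.48, rbd-1 by 0.47, dkc-1 by 0.35 and eif-6 by 0.23). In mab-10 mutants 0 were called and in ddx-23 mutants 2 fell (garr-1 by 0.42 and dkc-1 by 0.34), and the medians were −0.20, −0.18 and −0.06. garr-1 and dkc-1 encode proteins of the box H/ACA particles that modify ribosomal RNA. Of 6 RNA polymerase I subunits, 2 fell in lin-29 mutants (rpac-19 by 0.42 and rpoa-12 by 0.34), 0 in mab-10 mutants and 1 in ddx-23 mutants (rpac-19 by 0.35). The genes of these lists were named after their values had been seen, and differences between lists were not tested.

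Of 8 elongation factor genes, 1 rose (eef-1A.2, by 0.88) and 2 fell (eef-1B.2 and iff-1, the second by 0.35) in lin-29 mutants and 0 were called for mab-10 or ddx-23. eef-1B.2 encodes a subunit of the factor that recharges the elongation factor eEF-1A with GTP. Its level was 5.58, 5.26 and 5.44 in lin-29 libraries, 9.16, 9.34 and 9.23 in mab-10 libraries and 9.06, 9.06 and 9.09 in ddx-23 libraries, against 9.32, 9.31 and 9.34 in wild-type libraries. It fell by 3.90 in lin-29 mutants (SE 0.09, limma adjusted p = 1.22e-09), and the lin-29 libraries lay far under every other library. No ribosomal protein gene had a difference near that size.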

How the data were processed

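RNA of hand-picked whole young adults (12 libraries, 3 per genotype) was sequenced. Per the labels and methods, the authors mapped reads with STAR 2.5.3a to WBcel235 and quantified genes with RSEM 1.3.0. They deposited 1 table of log2(FPKM + 1) for 46761 gene IDs. Symbols came from a reference table (43780 IDs matched) and positions and transcript lengths from an Ensembl annotation of WBcel235, whose release may differ from that of the authors.

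The study's test needs counts, so limma 3.58.1 (R 4.3.3, trend and robust options) was fitted to the deposited log2 values of the 14199 genes that reached 1 FPKM in 3 or more libraries. All 12 libraries entered 1 fit with 8 residual degrees of freedom, and p-values were adjusted over all tested genes in each comparison. A fold change on this scale understates the change of low genes. Ratios of gene pairs were compared by exact permutation tests. The fit was tested on simulated data whose planted changes were larger than any difference of a member here. That test does not cover changes as small as those of the class.

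The members were taken by symbol alone, while the class and the lists were picked with earlier results of these data known. By the rule for named genes, the text names called members, pairs by symbol stem, the 3 highest and 3 lowest in wild-type, the untested member, the stalk genes and 4 genes with known unproductive splicing. Tried alternatives were the filter, pseudocount, scaling, fit options, a replicate block, library numbers and leaving out each library. Same-numbered replicates of lin-29 and mab-10 deviated together (correlations 0.46, 0.20 and 0.33), and the block changed no call between them. Per the methods, biological replicates were separate populations, here of 1 strain per genotype.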

Additional observations from a re-analysis of the deposited data

How the results depend on the processing

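Depth is unknown and each group has 3 libraries, which limits every difference here. The counts of members called in the lin-29, the mab-10 and the ddx-23 mutants against wild-type (0 higher and 1 lower, 0 and 0, 0 and 1) moved as follows. Median-ratio scaling gave 16 lower for lin-29 and 4 for ddx-23, where 8.20% and 3.0% of all tested genes were lower. Quantile normalization gave 1 higher and 0 lower for lin-29 and 0 lower for ddx-23. Subtracting the median of the 80 genes, or leaving out both wild-type replicates 1 and 2 (an alternative chosen after the data had been seen), gave 0 lower in both, and so did a required difference of over 1. The replicate block gave 3 lower in lin-29 mutants, where 3.35% of all tested genes were lower. In ddx-23 mutants FPKM of at least 5 gave 2 lower (1.95% of all tested genes) and library series as a term 9 lower (4.54%). Within the lower-numbered libraries there were 1 higher and 21 lower for lin-29, 10 lower for mab-10 and 55 lower for ddx-23, and within the higher-numbered ones 0 lower in lin-29 mutants; lin-29 and mab-10 have a single library in the lower run and wild-type in the higher run. The cause was not tested.

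Between mutants (0 calls), lin-29 against mab-10 had 1 lower within the higher-numbered libraries (6.94% of all tested genes). Within the lower-numbered libraries lin-29 and mab-10 have 1 library each. The class medians there were 0.02 for lin-29 minus mab-10 and 0.03 for lin-29 minus ddx-23. lin-29 against ddx-23 had 1 higher and 1 lower under quantile normalization, 1 higher in a fit of both groups alone, 2 higher within the lower-numbered libraries and 1 lower without both wild-type replicates 1 and 2. mab-10 against ddx-23 had 1 lower after subtracting the median of the 80 genes (4.66% of all tested genes). The same count came from a fit of both groups alone (5.91%) and without both wild-type replicates 1 and 2 (5.15%).

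The median differences (−0.14, −0.10 and −0.16) became −0.33 for lin-29 and −0.27 for mab-10 under median-ratio scaling, and 0.0369, 0.0292 and −0.0011 under quantile normalization. Quantile normalization moved the medians of all tested genes to −0.14, −0.04 and −0.07. Subtracting the class median in each library sets the class medians near 0 by construction (0.0117 for lin-29 and 0.0106 for ddx-23). Within the higher-numbered libraries they were 0.0212 for lin-29 and 0.11 for mab-10, and without both wild-type replicates 1 and 2 they were 0.0304, 0.0916 and 0.0129.

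Leaving out each library in turn gave 0 to 1 higher and 1 to 35 lower for lin-29, 0 to 1 higher and 0 to 7 lower for mab-10, and 0 to 0 higher and 0 to 27 lower for ddx-23, the most without wild-type replicate 3. The medians ranged from −0.24 to −0.10, −0.22 to −0.05 and −0.27 to −0.11. Between mutants it gave 0 calls for lin-29 against mab-10, 0 to 2 higher and 0 to 1 lower for lin-29 against ddx-23 and 0 to 3 higher and 0 to 1 lower for mab-10 against ddx-23. Without the 100 highest other genes in the sum, the share of the class was 30.2% for lin-29, 32.6% for mab-10 and 31.4% for ddx-23, against 35.99% for wild-type.

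Same-numbered replicates of wild-type and the mutants did not deviate together throughout (correlations from −0.30 to 0.31), so the block is given only as a hint, and it changed no call in mab-10 or ddx-23 mutants. Of the values of named members against wild-type under the alternatives, 11 lost a call, 62 gained one and 161 changed sign without a call on either side; none reversed a call.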
